A study of Homo sapiens with 6 samples.

Results

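The genes described here are 9 core genes of the Hedgehog pathway, SHH, PTCH1, SMO, SUFU, GLI1, GLI2, GLI3, HHIP and KIF7, of 19775 genes that the array reads with a probe set of their own. A probe set is a group of short probes for 1 transcript, and a gene can have several. All probe sets annotated with 1 of these symbols and no other gene were taken, which gave 24 of 54613. SHH had 2 of them, PTCH1 had 5, HHIP and SUFU had 4 each, GLI2 and GLI3 had 3 each, and SMO, KIF7 and GLI1 had 1 each. Within this rule only the symbols choose a probe set, but the 9 genes themselves were taken up with earlier results of these data known.

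RNA came from OCI-AML3, an established human acute myeloid leukaemia cell line with a mutated NPM1 gene. The 3 samples of the Vorinostat group received 1 μM Vorinostat (SAHA), an inhibitor of histone deacetylases, for 24 h. The 3 samples of the control group received DMSO, the solvent of the drug, for 24 h, and both groups carry the replicate numbers 1, 2 and 3. Every array thus comes from the same line and from no other leukaemia. It is not stated whether the replicates were separate cultures, and a p-value therefore covers the spread among these arrays alone, part or all of which may be technical. The comparison bears on whether the drug alters messenger RNA of a pathway that the study went on to block with an antagonist of SMO. By quantitative PCR the study reported a modest rise of SHH RNA with Vorinostat. It also reported more SHH protein with rising dose, in this line and another leukaemia line, and measured PTCH1 and WNT1 RNA by PCR. Those are other measures than the arrays described here.

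Hedgehog signalling begins when a secreted ligand such as SHH binds PTCH1, a membrane protein that otherwise holds SMO inactive. SMO then signals through the primary cilium, the hold of SUFU on the GLI proteins is relieved with KIF7 at the cilium tip taking part, and GLI1, GLI2 and GLI3 act in the nucleus on target genes. GLI1, PTCH1 and HHIP are themselves targets, so their RNA is commonly read as a measure of pathway activity. The pathway patterns the embryo and has been studied in the maintenance of leukaemic stem cells.

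Promoter sequences are shown for SHH, the ligand that the study followed, and for PTCH1, the receptor gene that GLI proteins switch on. Both are from RefSeq on GRCh38.p14 and give the 250 bases before a start of the gene, 5′ to 3′ on its own strand. Capitals mark the GLI consensus GACCACCCA, or TGGGTGGTC where it lies on the other strand.
SHH, chr7:155812464-155812713, minus strand: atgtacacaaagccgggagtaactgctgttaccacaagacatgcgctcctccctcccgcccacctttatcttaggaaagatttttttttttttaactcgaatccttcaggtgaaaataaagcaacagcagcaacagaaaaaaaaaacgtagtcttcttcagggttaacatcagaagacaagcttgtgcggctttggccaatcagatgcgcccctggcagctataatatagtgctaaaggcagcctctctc
PTCH1, chr9:95509267-95509516, minus strand: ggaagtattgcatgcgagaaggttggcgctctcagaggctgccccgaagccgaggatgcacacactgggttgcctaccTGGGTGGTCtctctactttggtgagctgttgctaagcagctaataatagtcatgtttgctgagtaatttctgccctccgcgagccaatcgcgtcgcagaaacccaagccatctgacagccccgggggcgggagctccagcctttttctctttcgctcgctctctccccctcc
The PTCH1 window held the consensus on its other strand, with its first base 172 bases before the start, and the SHH window did not hold it. Of the 9 genes, 7 had windows in the table used, 12 windows in all with 5 for PTCH1 and 2 for GLI2, and 1 of the 12 held the consensus in the 300 bases searched. GLI1 and GLI3 are named only. Of 35116 windows of the same length in the table, 83 (0.236%) held it. A match of letters is a description and shows no binding, and no match says only that these letters are not in this window.

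With all 6 arrays used, no probe set of the 9 genes passed a test for a difference between Vorinostat and DMSO. All 24 probe sets had array values in the low range, from 1.12 to 2.86 on the log2 scale, on all 6 arrays. Of the 24, 0 passed the threshold of the study, which was more than 2-fold with an unadjusted p under 0.05. At that threshold limma called 0.0165% of all probe sets higher and 0.0275% lower with Vorinostat. At an adjusted p under 0.05 limma called 0 of the 24 and 0% of all probe sets, and the lowest adjusted p among the 24 was 1. At an unadjusted p under 0.05 it called 0 of the 24, against 0.998% of all probe sets, and the methods' t-test also gave 0. Differences, as Vorinostat minus DMSO on the log2 scale, were positive for 11 of the 24 and negative for 13, with a median of -0.02 over the 24 and of -0.02 over all probe sets. The median size of the difference, whatever its sign, was 0.0980 over the 24 and 0.113 over all probe sets.

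Signal differed between arrays more than between groups. The arrays with replicate number 1 held 8158 (Vorinostat) and 8645 (DMSO) probe sets over a log2 value of 3, against 2761 to 3731 on the other 4 arrays, while the array medians lay between 1.55 and 1.66. Of 8 myeloid marker genes read, CEBPA and LYZ were over 3 on all 6 arrays, while MPO, the granule peroxidase of myeloid cells, lay between 1.76 and 2.76 and CSF1R, the receptor of monocytes, between 1.39 and 1.70. Of 19 markers of other cell types, 5 were over 3 on any array and 0 on all 6. In the list of T and NK cells NCAM1 lay between 2.97 and 7.09, while CD3D, CD3E, CD2 and GNLY lay between 1.37 and 2.29. In RNA of whole cultures, fewer cells with a transcript and less of it per cell cannot be told apart.

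**Figure D1:**
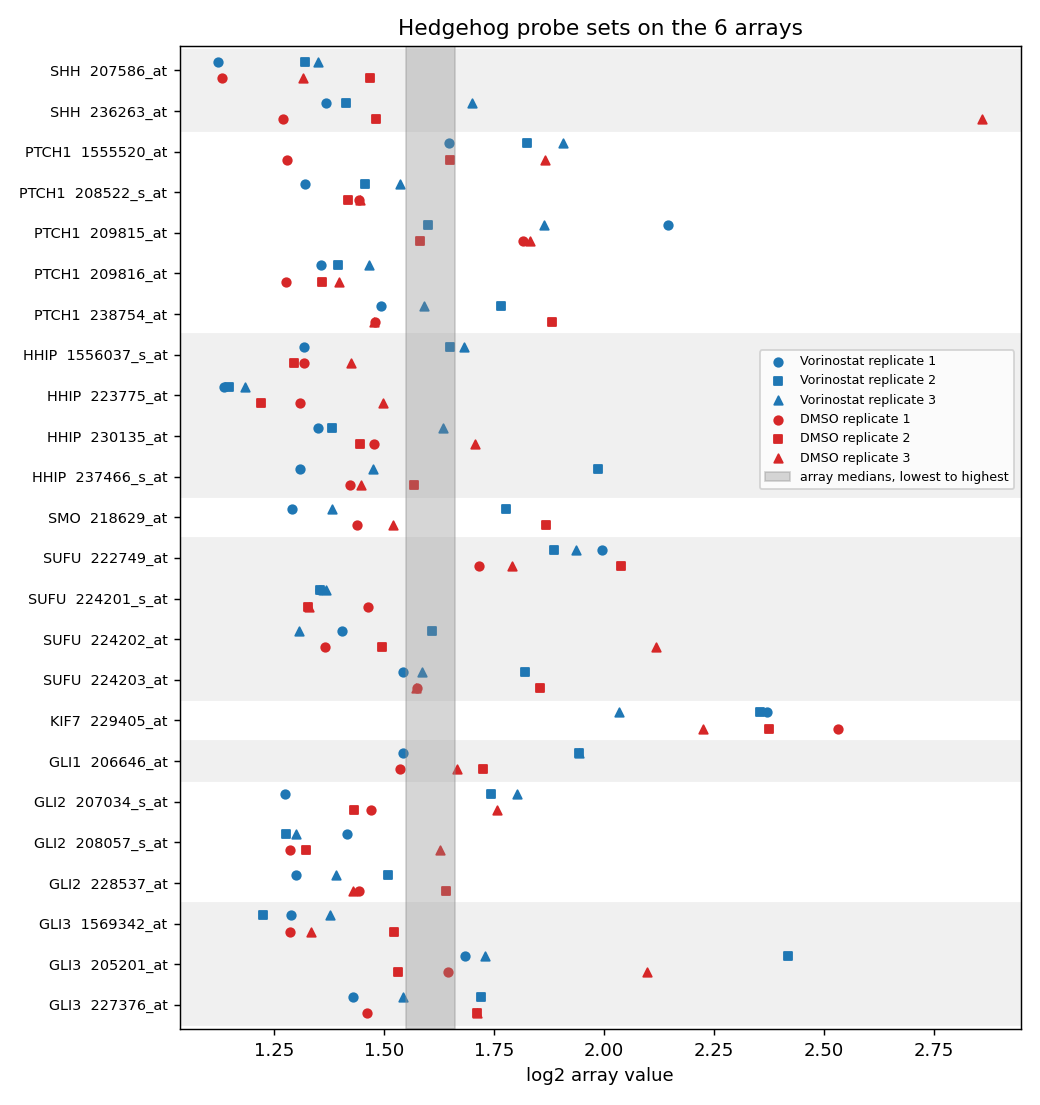
Log2 array values of the 24 Hedgehog probe sets, 1 point per array, with Vorinostat (blue) above DMSO (red) in each row and the marker giving the replicate number. The grey bar spans the 6 array medians, 1.55 to 1.66, and all points lie between 1.12 and 2.86.

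The ligand was read by 2 probe sets. SHH 207586_at had log2 values of 1.12, 1.32 and 1.35 on Vorinostat replicates 1, 2 and 3, against 1.13, 1.47 and 1.32 on DMSO replicates 1, 2 and 3. The groups overlapped, and on both number 1 arrays the value was the lowest of its group. The difference was -0.04 (95% interval -0.37 to 0.29, standard error 0.13 from limma), so a rise of 2-fold in the array value lies outside the interval. The values lay between the 0.858th and 24.5th percentile of each array. An array value this low need not follow the amount of RNA, so a rise of SHH RNA is not excluded. Within replicate numbers 1, 2 and 3 it was -0.01, -0.15 and 0.03. SHH 236263_at had 1.37, 1.41 and 1.70 on the Vorinostat arrays, against 1.27, 1.48 and 2.86 on the DMSO arrays. A single DMSO array, replicate 3, stood away from the other 5. The difference was -0.38 (95% interval -1.49 to 0.74, standard error 0.445 from limma), and it was 0.12 without that array. For the array value of 236263_at, the interval includes a fall of 2-fold but no rise of 2-fold. On both probe sets the sign of the SHH difference varied between replicate numbers.

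PTCH1, the receptor of the ligand and itself a GLI target, had 5 probe sets, and all 5 differences were at or above 0, between 0.00 and 0.19. PTCH1 1555520_at had 1.65, 1.83 and 1.91 on the Vorinostat arrays, against 1.28, 1.65 and 1.87 on the DMSO arrays. The difference was 0.19 (95% interval -0.26 to 0.65, standard error 0.179 from limma), with 0.37, 0.18 and 0.04 within numbers 1, 2 and 3. The DMSO values spanned the Vorinostat values except for the highest, so the groups overlapped. PTCH1 209815_at had 2.15, 1.60 and 1.87 on the Vorinostat arrays, against 1.82, 1.58 and 1.83 on the DMSO arrays. Its difference was 0.13 (95% interval -0.30 to 0.56), of which number 1 gave the most. Without Vorinostat replicate 1 it was -0.01. PTCH1 209816_at had 1.36, 1.40 and 1.47 on the Vorinostat arrays, against 1.28, 1.36 and 1.40 on the DMSO arrays, a difference of 0.06 (95% interval -0.16 to 0.28). These 3 probe sets were higher with Vorinostat in each replicate number, by as little as 0.02. The 2 other PTCH1 probe sets, 208522_s_at and 238754_at, each had a difference of 0.00 with 95% intervals of -0.24 to 0.24 and -0.39 to 0.39, and neither kept 1 sign across the numbers.

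HHIP, a membrane protein that binds and sequesters the ligand and is also a GLI target, had 4 probe sets, and their differences did not share a sign. HHIP 223775_at had 1.14, 1.15 and 1.18 on the Vorinostat arrays, against 1.31, 1.22 and 1.50 on the DMSO arrays. All 3 Vorinostat values lay below all 3 DMSO values, which no other Hedgehog probe set showed. Its difference was -0.19 (95% interval -0.45 to 0.08, standard error 0.107, adjusted p = 1 from limma), and its unadjusted p was the lowest of the 24. Groups lay apart in this way for 0 of the 24 higher, where all probe sets gave 2.39%, and for 1 of the 24 lower, where all probe sets gave 2.87%. The count of 1 is near that background. HHIP 1556037_s_at had 1.32, 1.65 and 1.68 on the Vorinostat arrays, against 1.32, 1.30 and 1.43 on the DMSO arrays. Here the number 1 arrays agreed to 2 decimals and the other 2 Vorinostat arrays lay above all DMSO arrays. The difference was 0.20 (95% interval -0.13 to 0.53, standard error 0.132 from limma), and without Vorinostat replicate 1 it was 0.32 and passed an unadjusted p under 0.05, with an adjusted p = 0.932 from limma. HHIP 230135_at had a difference of -0.09 (95% interval -0.42 to 0.24), lower in each replicate number, and HHIP 237466_s_at one of 0.11 (95% interval -0.38 to 0.60), with Vorinostat replicate 2 at 1.99 and the other 5 arrays between 1.31 and 1.57. The gene thus had 2 probe sets with positive and 2 with negative differences.

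SMO, the receptor-like protein that the antagonist SANT-1 binds, was read by 218629_at alone. It had 1.29, 1.78 and 1.38 on the Vorinostat arrays, against 1.44, 1.87 and 1.52 on the DMSO arrays. In both groups replicate 2 was the highest array, and each Vorinostat array lay below the DMSO array of its number. The difference was -0.13 (95% interval -0.60 to 0.35, standard error 0.188 from limma), with -0.15, -0.09 and -0.14 within numbers 1, 2 and 3. With the replicate number in the fit SMO had an adjusted p = 0.887 from limma, which is no call either.

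**Figure D2:**
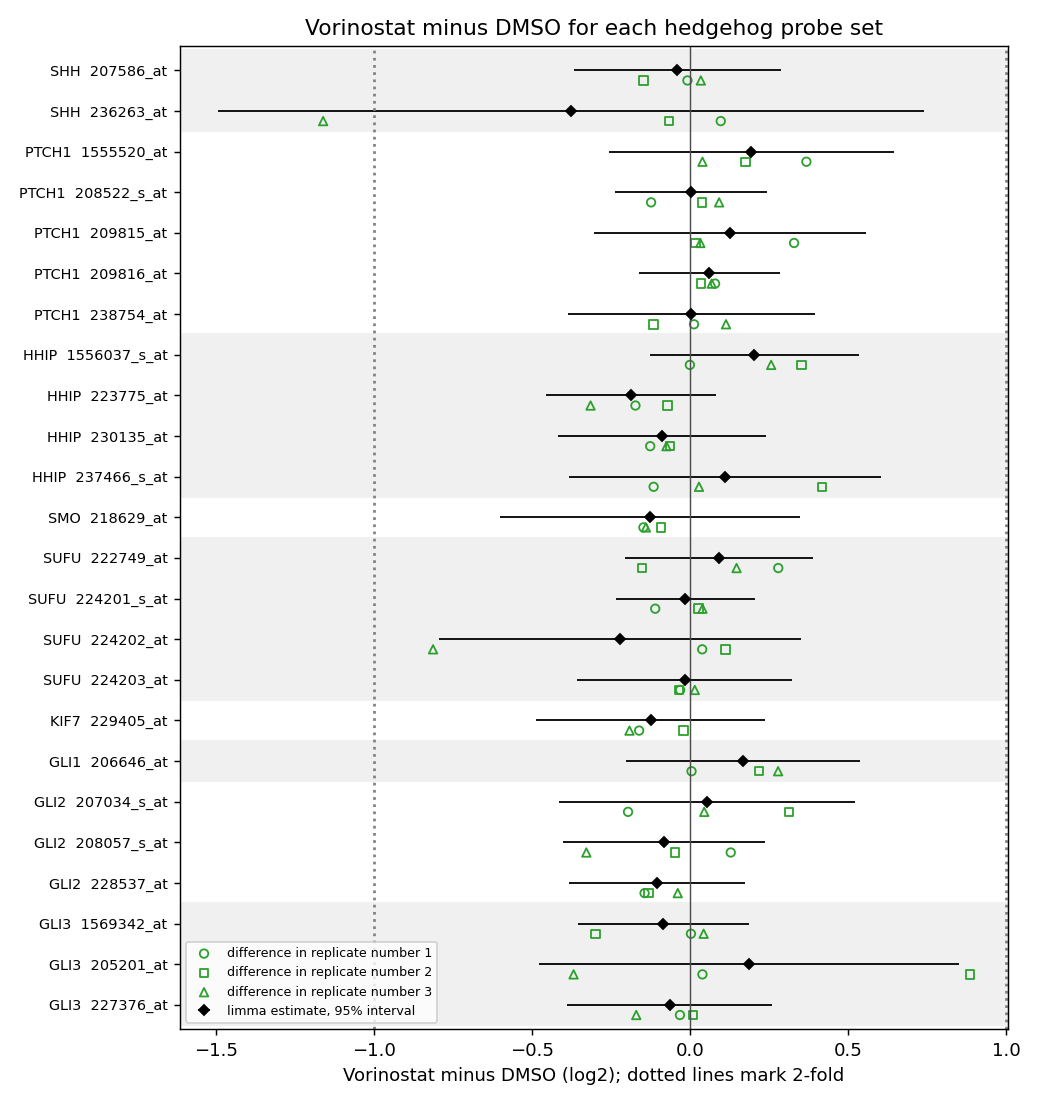
Vorinostat minus DMSO on the log2 scale for the 24 Hedgehog probe sets, with the limma estimate and its 95% interval (black, n = 3 arrays per group) and the difference within each replicate number (green). All 24 intervals include 0, and the estimates run from -0.38 to 0.20.

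SUFU and KIF7 hold GLI proteins in check inside the cell. SUFU had 4 probe sets, with differences between -0.22 and 0.09. SUFU 222749_at had 2.00, 1.89 and 1.94 on the Vorinostat arrays, against 1.72, 2.04 and 1.79 on the DMSO arrays, a difference of 0.09 (95% interval -0.20 to 0.39). SUFU 224202_at had 1.40, 1.61 and 1.31 on the Vorinostat arrays, against 1.37, 1.50 and 2.12 on the DMSO arrays. DMSO replicate 3 again stood away, and the difference was -0.22 (95% interval -0.79 to 0.35) with it and 0.01 without it. SUFU 224201_s_at and 224203_at differed by -0.01 (95% interval -0.24 to 0.21) and -0.02 (95% interval -0.36 to 0.32). No SUFU probe set kept 1 sign in the 3 replicate numbers. KIF7 229405_at, for the ciliary kinesin that regulates GLI processing, had 2.37, 2.36 and 2.04 on the Vorinostat arrays, against 2.53, 2.38 and 2.23 on the DMSO arrays. Its values lay between the 79.6th and 88.8th percentile of each array, above the array median on all 6. The KIF7 difference was -0.12 (95% interval -0.49 to 0.24, standard error 0.144 from limma), with -0.16, -0.02 and -0.19 within numbers 1, 2 and 3. Each Vorinostat array lay below the DMSO array of its number, but the groups overlapped, since DMSO replicate 3 lay below Vorinostat replicates 1 and 2.

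Of the GLI transcription factors, GLI1 is the activator whose own gene is a target of the pathway. GLI1 206646_at had 1.54, 1.94 and 1.94 on the Vorinostat arrays, against 1.54, 1.73 and 1.67 on the DMSO arrays. On the number 1 arrays the values were alike, and in numbers 2 and 3 the Vorinostat array was higher. The difference was 0.17 (95% interval -0.20 to 0.54, standard error 0.147 from limma), with 0.01, 0.22 and 0.28 within numbers 1, 2 and 3. A rise of 2-fold in the array value lies outside the interval, and without Vorinostat replicate 1 the difference was 0.30. GLI2, the main activator downstream of SMO, had 3 probe sets with differences of 0.05 (207034_s_at, 95% interval -0.41 to 0.52), -0.08 (208057_s_at, 95% interval -0.40 to 0.24) and -0.10 (228537_at, 95% interval -0.38 to 0.18). The last was lower with Vorinostat in each number, at 1.30, 1.51 and 1.39 against 1.44, 1.64 and 1.43 with DMSO. GLI3, which is processed to the main repressor of the pathway, also had 3. GLI3 205201_at had 1.68, 2.42 and 1.73 on the Vorinostat arrays, against 1.65, 1.53 and 2.10 on the DMSO arrays. One array of each group stood high, and the difference of 0.19 (95% interval -0.48 to 0.85) was -0.05 without Vorinostat replicate 2. GLI3 1569342_at and 227376_at differed by -0.08 (95% interval -0.35 to 0.19) and -0.06 (95% interval -0.39 to 0.26).

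Across the pathway, 4 of the 24 probe sets were higher with Vorinostat in each replicate number (3 of PTCH1 and that of GLI1), where all probe sets gave 12.4%. The count of those lower in each number was 5 of 24 (2 of HHIP and 1 each of SMO, KIF7 and GLI2), where all probe sets gave 14.7%. The 2 number 1 arrays deviated together, with a correlation of 0.874, while numbers 2 and 3 were not told apart. The replicate number was also put in the fit as a block, which assumes that all 3 numbers pair the arrays. At an unadjusted p under 0.05, limma with the block called 0 of the 24 and 3.67% of all probe sets, and the lowest adjusted p among the 24 was 0.887. Beyond SHH 236263_at, no probe set of the 9 genes had a 95% interval that reached a 2-fold difference in either direction. These intervals are for the array values, and in this low range an array value need not follow the amount of RNA.

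The level of these genes was set against the median of each array. The median over the 24 probe sets was 1.36, 1.63 and 1.57 on Vorinostat replicates 1, 2 and 3, against 1.44, 1.53 and 1.60 on DMSO replicates 1, 2 and 3. Above the array median lay 5, 12 and 9 of the 24 on the Vorinostat arrays, against 5, 8 and 11 on the DMSO arrays, and 0 of the 24 lay above the 95th percentile of any array. No Hedgehog probe set was over a log2 value of 3 on any array, where 19.7% of all probe sets were. For comparison, 22 genes used chiefly in other tissues, such as albumin, insulin and the cardiac myosins, had values from 1.21 to 3.14. Each was read by its probe set with the highest mean, and SFTPC gave the top value. With 1 probe set per Hedgehog gene, the Vorinostat medians were 1.54, 1.89 and 1.80 against 1.50, 1.64 and 1.68 in replicate order. The DMSO medians were 1.54, 1.58 and 1.79 against 1.48, 1.59 and 1.83. Pooled over the arrays, most Hedgehog values lay in the range of the other-tissue genes, which myeloid cells are not known to use. Array by array this did not hold for all. On the number 1 arrays KIF7, at 2.37 (Vorinostat) and 2.53 (DMSO), lay above the highest other-tissue values of 2.01 and 2.38. PTCH1 209815_at, at 2.15, did so on Vorinostat replicate 1. SHH 236263_at, at 2.86, did so on DMSO replicate 3, where the highest other-tissue value was 2.60.

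The brighter number 1 arrays gave a further description of level. Over all probe sets 14.8% had a mean on these 2 arrays that was more than 1 log2 unit above the mean of the other 4. Of the 11 housekeeping genes read 10 did, with a median of 3.04. None of the 24 Hedgehog probe sets did, and their values ran from -0.54 (SHH 236263_at) to 0.26 (PTCH1 209815_at) with a median of -0.17. The 22 genes of other tissues also gave 0, with a median of -0.22. How the deposited values relate to the amount of RNA near the lower end of the scale was not tested.

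**Figure D3:**
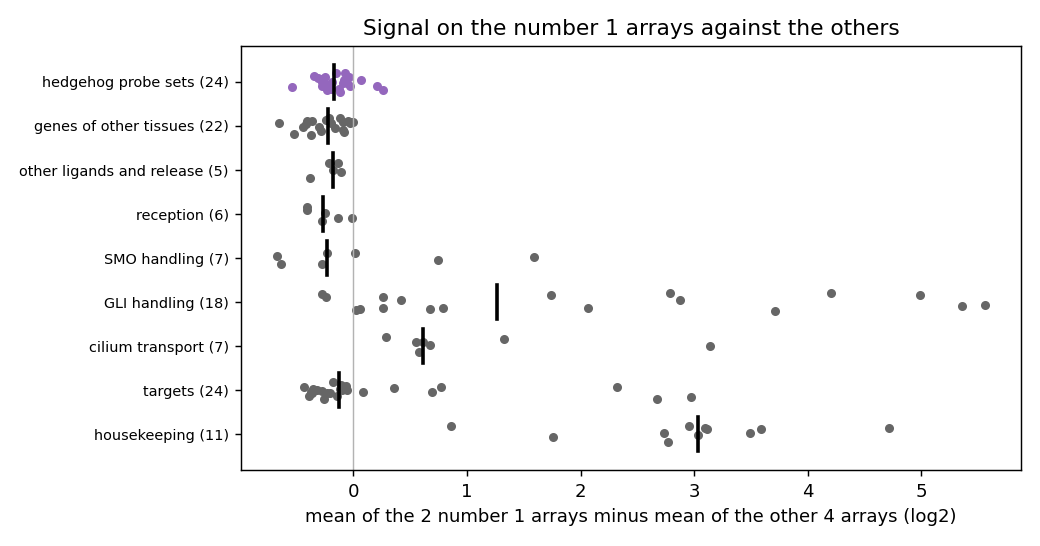
Mean log2 value on the 2 number 1 arrays minus the mean on the other 4 arrays, 1 point per probe set or gene, with a black bar at each group's median and the number read in brackets. The Hedgehog probe sets lie between -0.54 and 0.26, while housekeeping genes have a median of 3.04.

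The wider pathway was read from a list of 74 further genes, of which 67 had a probe set of their own and were read by the one with the highest mean. With limma on the deposited values none passed the threshold of the study (0 of 67, where all genes gave 0.0961%). It gave 0 of 67 an unadjusted p under 0.05, where all genes gave 0.991%. The study's own gene list at that threshold is longer than the calls made here, and it holds BMP2 and IFT80 as increasing. Here BMP2 differed by 0.35 (95% interval -2.85 to 3.56). IFT80, a gene of cilium transport, differed by 0.71 (95% interval -2.66 to 4.08). Why the calls differ was not tested. Differences were positive for 38 and negative for 29, with a median of 0.03. The other ligands gave no call. IHH, the ligand of cartilage and bone growth, had 1.74, 2.55 and 1.91 on the Vorinostat arrays, against 1.81, 1.74 and 1.74 on the DMSO arrays, a difference of 0.30 (95% interval -0.27 to 0.87) that came mostly from Vorinostat replicate 2. DHH, the ligand of testis and nerve sheath, differed by -0.01 (95% interval -0.51 to 0.50). WNT1, a secreted signalling protein and listed here as a target, had 1.42, 2.01 and 1.44 on the Vorinostat arrays, against 1.40, 1.75 and 1.88 on the DMSO arrays, a difference of -0.05 (95% interval -0.61 to 0.50).

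Groups lay apart for 1 of the 67 genes, where all genes gave 4.25%. This was HAND2, a transcription factor of limb and heart, with 1.64, 1.78 and 1.76 on the Vorinostat arrays, against 1.46, 1.60 and 1.62 on the DMSO arrays and a difference of 0.17 (95% interval -0.08 to 0.41). In the fit with the block 5 of the 67 had an unadjusted p under 0.05 from limma, where all genes gave 5.37%, and the lowest adjusted p was 0.887. These 5 are named after their values were seen. Higher with Vorinostat were STK36 (0.37, standard error 0.105), a kinase that acts with SUFU and GLI proteins, CSNK1E (0.40, standard error 0.137), a casein kinase, and IFT88 (0.52, standard error 0.157), which builds the cilium. Lower were MED12 (-0.44, standard error 0.0940), a Mediator subunit, and SPOP (-0.48, standard error 0.148), which targets GLI2 and GLI3 for degradation. None of the 5 passed in the fit of the values as deposited without the block, and IFT88 passed after quantile normalisation (0.61, standard error 0.192).

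Other settings gave 6 more genes of the wider list an unadjusted p under 0.05 from limma, each with an adjusted p of 0.932 or above. Each of these settings gave 1 or 2 of the 67. The share of all genes under them is not given here, so the 6 genes are examples and the count is not read as a result. BMP2, a bone morphogenetic protein, differed by 0.83 (standard error 0.151) after quantile normalisation. The cyclin CCND2 and the transcription factor MYCN differed by -0.41 and -0.50 with both number 1 arrays left out, and by -0.45 and -0.56 without DMSO replicate 1. HHAT, which attaches palmitate to the ligand, differed by -0.52 without DMSO replicate 2, and the kinase GSK3B by -0.88 without DMSO replicate 3. Without Vorinostat replicate 1 the kinase GRK2, which phosphorylates SMO, passed the threshold of the study at 1.13 (standard error 0.420, adjusted p = 0.932 from limma), and with all arrays its difference was 0.71 (95% interval -0.55 to 1.96).

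Genes over 3 were counted by role, as counts of probe sets, whose levels are not comparable with each other. On both number 1 arrays 17 of the 67 genes were over 3. These were 9 of 18 that handle GLI proteins, such as the protein kinase A subunit PRKAR1A, the ubiquitin ligase scaffold CUL3 and the deacetylase HDAC1, which Vorinostat inhibits. There were 2 of 7 that handle SMO, 2 of 7 of cilium transport and 4 of 24 targets. Of the 5 other ligand and release genes and the 6 of reception, 0 were. Among all probe sets, 8158 (Vorinostat) and 8645 (DMSO) were over 3 on the number 1 arrays. The share of all genes over 3 on both, read the same way, is not given here. The counts by role are therefore a description, and whether any role differs from other genes was not tested. Only 5 of the 67 were over 3 on all 6 arrays. HDAC1 had 7.96, 2.17 and 2.45 on the Vorinostat arrays, against 7.16, 2.63 and 1.55 on the DMSO arrays, a difference of 0.42 with a 95% interval of -5.10 to 5.93. Its values were high on both number 1 arrays and low on the other 4, and with the replicate number as a block the interval was -0.45 to 1.28.

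**Figure D4:**
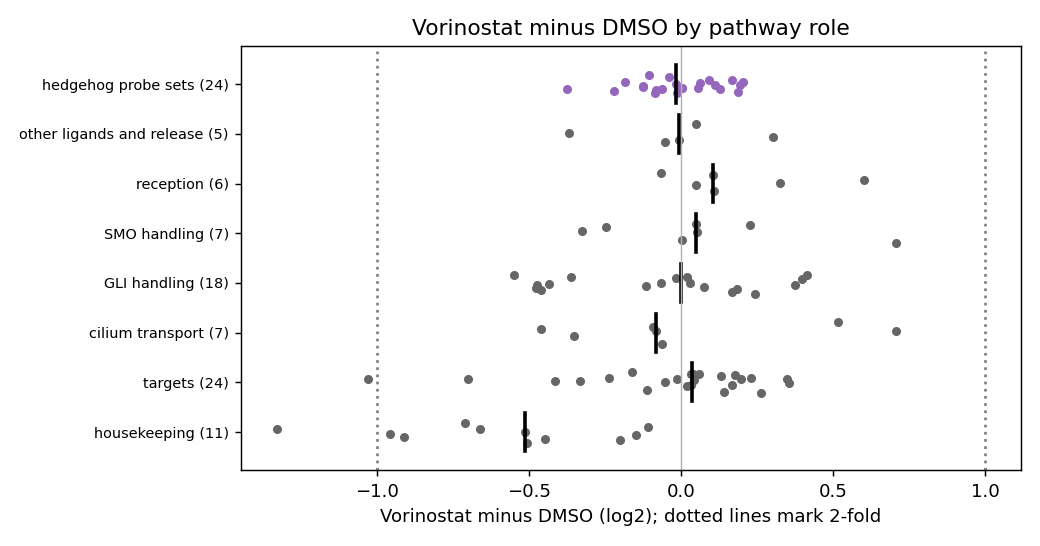
Vorinostat minus DMSO on the log2 scale for the 24 Hedgehog probe sets and for the wider genes by role, 1 point per probe set or gene, with a black bar at the median and housekeeping genes last. Medians of the Hedgehog probe sets and the roles lie between -0.08 and 0.11, and that of the housekeeping genes is -0.51. Within replicate numbers 1, 2 and 3 the housekeeping median is 0.02, -1.70 and -0.24, so number 2 differs most.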

How the data were processed

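Total RNA was hybridised to 6 Affymetrix HG-U133 Plus 2.0 arrays, and the log2 values per probe set were used as the authors deposited them. The methods name Partek Genomics Suite for the import of the array files. MAS5 and RMA appear in the submitters' processing notes without a version or a stated role. A range of 0.868 to 13.76 showed the scale to be log2. Arrays differed in their upper percentiles, hence had not been quantile normalised together, and any centring is not stated.

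Of 54675 probe sets, 62 controls were left out and the other 54613 entered the fit as deposited, unfiltered, with lmFit and eBayes of limma 3.58.1 under R 4.3.3 (two-sided) with Benjamini-Hochberg adjustment over all of them. The fit was tested on simulated data with independent noise, no shared effect of the replicate number and added changes larger than any Hedgehog difference. That test does not show whether changes of the size seen here could be found. Gene names came from the platform annotation, under which 41091 probe sets name 1 gene, 1801 several and 11721 none. Probe sets with several genes were not used. Probe sets whose name ends in _s_at or _x_at may also read related transcripts, and levels of different probe sets are not comparable. A wider gene was read by its probe set with the highest mean, and genes with no probe set naming them alone were not analysed here. The 3 arrays per group limit the precision.

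The members, the wider list, the lists of other tissues, housekeeping genes and cell type markers and the log2 mark of 3 were chosen with earlier results of these data known, so no list was tested. Every Hedgehog probe set is described. For the wider list, the rule names genes with an unadjusted p under 0.05 in the fit as designed (0 genes). It also names those with the groups apart, and IHH, DHH and WNT1 whatever their values. BMP2 and IFT80 are named because the study lists them as increasing. Others are named as examples chosen after their values were seen.

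Sources do not state whether the replicate number pairs the samples. Deviations of arrays from their group mean correlated at 0.874, 0.599 and 0.672 for numbers 1, 2 and 3, all above the mark of 0.1 set for pairing. The main fit still held no block, since the study's methods name none. Its intervals, standard errors and p-values therefore ignore any pairing. With the block the standard error fell from 0.188 to 0.0936 for SMO 218629_at and rose from 0.118 to 0.128 for SUFU 222749_at. Vorinostat replicate 2 with DMSO replicate 3 gave 0.695 and the reverse 0.594, so numbers 2 and 3 were not told apart. Alternatives were the replicate block, quantile normalisation, median centring, dim probe sets left out, the methods' t-test, each array left out in turn and both number 1 arrays left out. Exact permutation of 3 arrays against 3 cannot go below p = 0.1 and was not used.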

Additional observations from a re-analysis of the deposited data

How the results depend on the processing

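Under all alternatives run, 0 of the Hedgehog probe sets passed the threshold of the study. Of 272 differences recomputed for single probe sets, 245 kept their sign and 27 turned, and 9 of the 24 probe sets kept it throughout. The replicate block, the methods' t-test and leaving out dim probe sets do not alter a difference. Their signs could not turn, so the count of 245 overstates how stable the signs were. The count of all probe sets past the threshold was 24, and it was 227 with the replicate block, 288 with both number 1 arrays left out, 117 after quantile normalisation, 5 by the methods' t-test and 21 to 240 with single arrays left out. The cause was not tested. With the block MPO (-0.51) and HPRT1 (-0.91), of the marker and housekeeping lists, had an unadjusted p under 0.05 from limma, which they had not without it, and the block changed no call of a Hedgehog probe set.

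Hedgehog probe sets with the groups apart numbered 6 with both number 1 arrays left out (33.3% of all probe sets under that setting), 2 after quantile normalisation (7.1%), 0 of the 8 that remained with dim probe sets left out (3.94%), and 2 to 4 with single arrays left out (10.1% to 20.1%). Those with 1 sign in each number were 16 (50.7% of all probe sets), 7 (27.4%) and 4 of the 8 (26.9%), in the same order, and 13 to 16 with single arrays left out (50.3% to 52.6%), where fewer numbers are compared. Of the wider list, 0 to 1 passed the threshold with single arrays left out. PTCH1 238754_at turned to -0.00014 and SUFU 222749_at to -0.002225 with both number 1 arrays left out, SUFU 224201_s_at to 0.0333 there, and PTCH1 238754_at to -0.0119 after quantile normalisation.

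With single arrays left out, the differences of probe sets whose sign turned ran from -0.127 to 0.0413 for SHH 207586_at, -0.676 to 0.119 for SHH 236263_at, -0.0465 to 0.0614 for PTCH1 208522_s_at, -0.011 to 0.262 for PTCH1 209815_at and -0.0704 to 0.138 for PTCH1 238754_at. They ran from -0.0875 to 0.252 for HHIP 237466_s_at, -0.273 to 0.00374 for SMO 218629_at, -0.0372 to 0.031 for SUFU 224201_s_at, -0.367 to 0.00908 for SUFU 224202_at and -0.102 to 0.0776 for SUFU 224203_at. For GLI2 207034_s_at they ran from -0.0434 to 0.221, for GLI2 208057_s_at from -0.145 to 0.0257, for GLI3 205201_at from -0.0511 to 0.356 and for GLI3 227376_at from -0.147 to 0.00378. Probe sets that kept their sign with single arrays left out had 0.0352 to 0.329 for PTCH1 1555520_at, 0.0276 to 0.088 for PTCH1 209816_at, 0.137 to 0.319 for HHIP 1556037_s_at, -0.247 to -0.108 for HHIP 223775_at, -0.176 to -0.005 for HHIP 230135_at. The others had 0.0258 to 0.187 for SUFU 222749_at, -0.2 to -0.0144 for KIF7 229405_at, 0.101 to 0.302 for GLI1 206646_at, -0.159 to -0.0361 for GLI2 228537_at and -0.131 to -0.0129 for GLI3 1569342_at. The low range of the values limits what these arrays can show.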
